A study of Rattus norvegicus with 6 samples.

Results

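The phase II conjugating enzymes of the liver were taken as the protein-coding genes of the deposited table whose symbols belong to the UDP-glucuronosyltransferase (UGT), cytosolic sulfotransferase (SULT) and glutathione S-transferase (GST) families. The rule used the symbol and the transcript type alone and found 59 genes of the 32930 in the table, of which 17713 were listed as protein-coding. The 59 comprised 19 UGT genes, 15 SULT genes and 25 GST genes, the last including 3 membrane-bound enzymes (MGST). Liver RNA was compared between 3 libraries of the HFD group, which received a high-fat diet with 0.5% CMC-Na, and 3 libraries of the HTG group, which received the same diet with Huazhuo Tiaozhi granule (HTG), a herbal formula. Both groups were thus on the high-fat diet, the design text gives 12 weeks for the whole of the feeding with its interventions, and no normal-diet group was analysed here. The methods for the rats of the study started HTG after a first period on the diet, so the treatment was shorter than the diet there, and its length in these animals was not given apart from the design text. The rat methods also gave the drugs in 0.5% CMC-Na, which the labels name for the HFD samples only. The treatment label of the HTG samples is spelled HCG while their titles read HTG. The labels name Rattus norvegicus, the paper's sequencing methods name C57BL/6 J mice, and the gene identifiers are those of the mouse, so genes are given here by mouse symbols. Neither the age nor the sex of these animals was given in the labels.

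Phase II enzymes attach a polar group to bilirubin, steroids, bile acids, drugs and plant compounds, so that the product can leave the cell and be excreted in bile or urine. UGT enzymes sit in the endoplasmic reticulum and transfer a sugar, usually glucuronic acid from UDP-glucuronate. SULT enzymes of the cytosol transfer a sulfonate group from the donor PAPS, and GST enzymes join reactive compounds to the thiol of glutathione. The liver is a main site of all of these reactions, and nuclear receptors such as CAR and PXR, the AHR and the stress-sensing factor NRF2 are known regulators of many of the genes.

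The libraries held between 12662194 and 22640869 fragments, taken as the deposited counts divided by 4. Among low counts, 4 and 8 stood above their neighbours (6450 and 3333 values). Counts of 1, 2 and 3 were frequent too (5104, 4229 and 2549 values). The division by 4 is thus an assumption, and numbers of fragments are approximate. Levels are given as CPM, the counts divided by the scaled library size, which compares 1 gene between libraries but not genes of different length, and a gene at 3 fragments would stand between 0.123 and 0.256 CPM. The 13 mRNAs of the mitochondrial genome took 6.31%, 4.82% and 5.18% of the counts in HFD 1 to 3 and 9.12%, 14.9% and 13% in HTG 1 to 3. These shares moved with the group, and their part in the results was not tested. The hepatocyte genes Alb (53506 to 74503 CPM over the 6 libraries) and Ttr (4833 to 6018 CPM) were abundant in every library. Of the exocrine pancreas markers, Pnlip had no count in any library, Cela2a was at 0.899 to 4.95 CPM, and Cpa1 and Prss1 had no row. In bulk liver RNA, fewer cells of a type and less RNA per cell cannot be told apart, which holds for every level given here.

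Most UGT transcripts, and some GST and SULT transcripts, stood lower with HTG than with HFD alone. A gene was called where the unadjusted p of edgeR's quasi-likelihood test was under 0.05. Of the 51 members with enough counts to test, 19 were called lower and 1 was called higher, against 12.4% called lower and 12.3% called higher among all 18455 genes tested. The lower calls comprised 11 of 18 tested UGT genes, 2 of 9 tested SULT genes and 6 of 24 tested GST genes, and the higher call was the GST gene Gstp3. Among genes averaging at least 10 CPM, the share called lower was 20.4%. The counts of GST and SULT genes called lower were thus nearer to these shares than that of the UGT genes. All HTG libraries lay below all HFD libraries for 18 members and above them for 1, against 15.5% and 16.5% of all genes tested. The median log2 fold change (HTG over HFD) was -1.13 over the tested UGT genes, -0.41 over the SULT genes and -0.36 over the GST genes, beside 0.03 over all genes tested. No member passed a Benjamini-Hochberg adjusted p under 0.05 in edgeR, which 2 genes passed in the whole table (0.0108%, or 0.00542% in each direction). With DESeq2, 17 members passed that threshold, 16 of them lower and 1 higher, against 13.8% of all genes (7.55% lower and 6.29% higher). At an adjusted p under 0.1 in edgeR, 14 members passed, 13 of them lower and 1 higher, against 10.8% of all genes (5.43% lower and 5.41% higher). That last count was 2 without HFD 1, 1 without HFD 2 and 0 without HFD 3, HTG 2 or HTG 3, and stood at 15 without HTG 1.

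**Figure D1:**
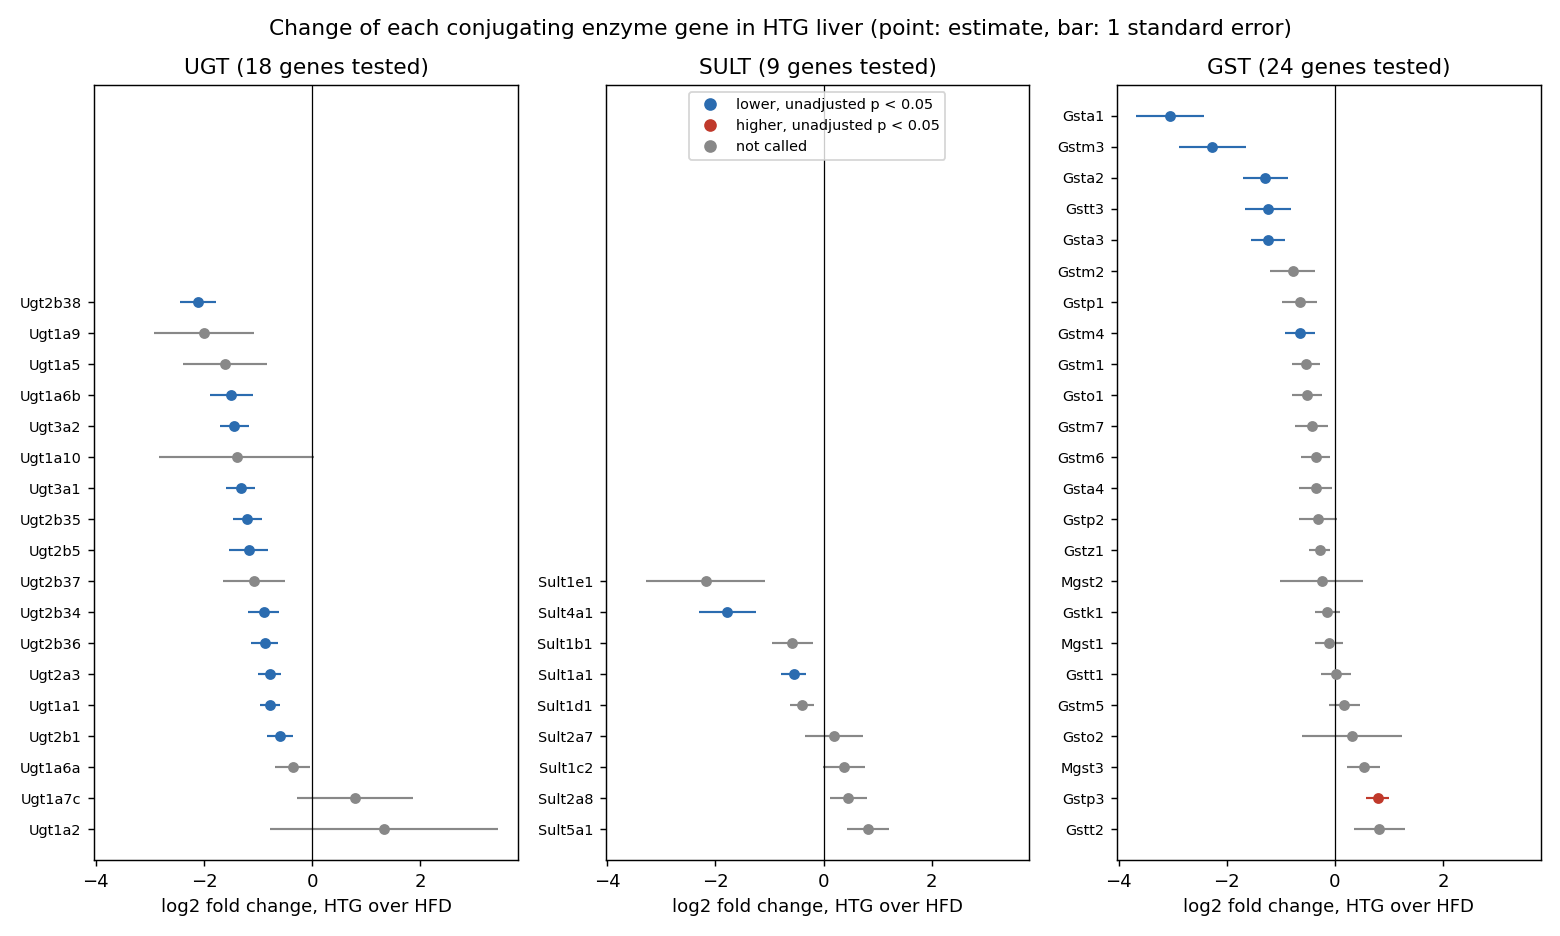
Log2 fold change (HTG over HFD, horizontal axis) of each tested UGT, SULT and GST gene from edgeR, with bars of 1 standard error and genes grouped by family. Most UGT genes lie left of 0, with Ugt2b38 at -2.10, while SULT genes lie on both sides and Gstp3 at 0.79 is the called GST gene on the right.

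Summed over all its genes, the UGT family stood at 3750, 5002 and 3314 CPM in HFD 1 to 3 and at 2426, 2006 and 1775 CPM in HTG 1 to 3. The groups did not overlap, and the HFD mean was 1.94 times the HTG mean (4022 ± 876 against 2069 ± 330, SD, n = 3 each). The GST sum was 12155, 11450 and 10177 CPM in the HFD libraries and 8807, 7844 and 7705 CPM in the HTG libraries, again with no overlap and an HFD mean 1.39 times that of HTG. The SULT sum was 1129, 1028 and 997 CPM in the HFD group against 960, 1119 and 775 CPM in the HTG group, where HTG 2 lay within the HFD range. The sums follow the most abundant genes of each family, and they carry no test of their own.

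**Figure D2:**
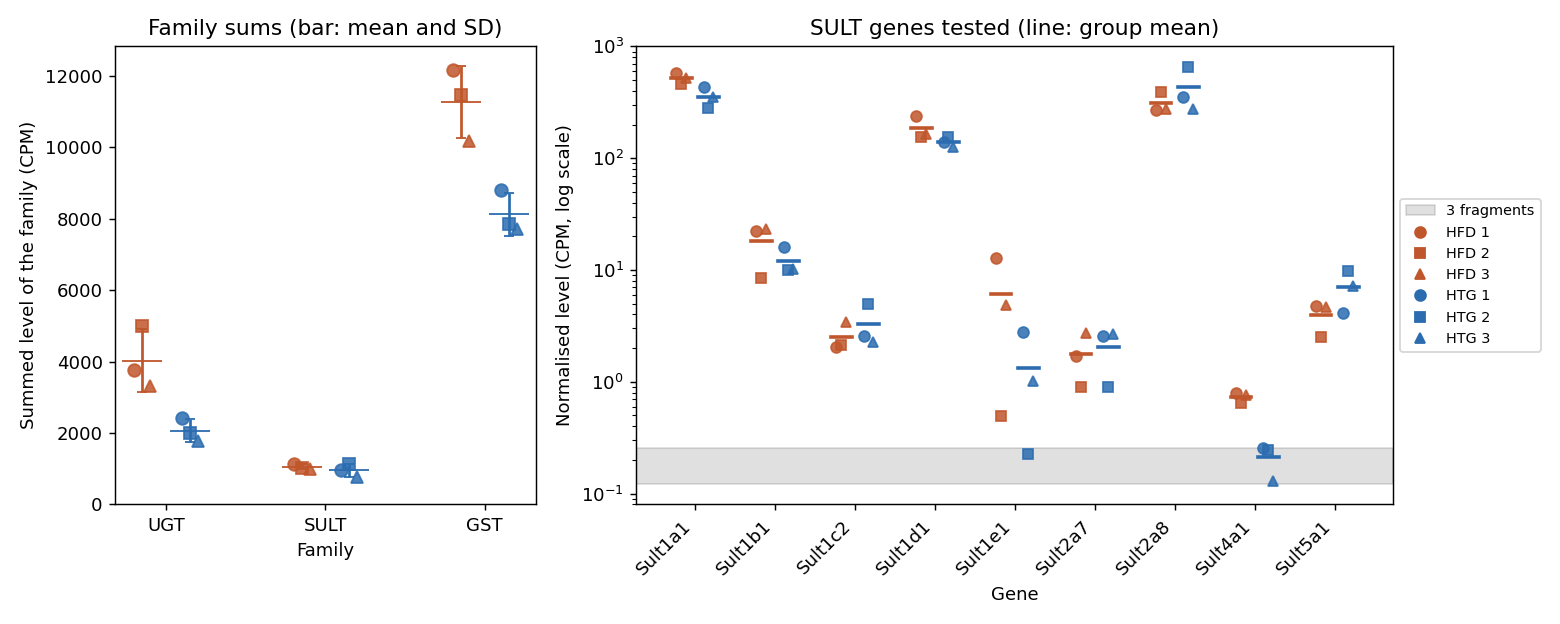
Left, summed level (CPM) of the UGT, SULT and GST genes in each library (points) with group mean and SD, and right, the CPM of the tested SULT genes on a log axis with a grey band at the level of 3 fragments. The HFD points lie above all HTG points for UGT and GST sums, while the SULT sums overlap.

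Among the UGT genes, those of the UGT1A locus share their last exons and differ in the first. All 8 rows of the locus ended between positions 88146719 and 88147724 of chromosome 1, so the split of counts among them is uncertain and the locus sum is the firmer value. Gm20528 and Dnajb3 overlap rows of the locus on the other strand, and further annotated genes do so on the same strand. Since use of the strand in counting was not stated, some uncertainty remains in the locus sum. That sum was 963, 1156 and 1056 CPM in the HFD libraries and 662, 556 and 548 CPM in the HTG libraries, an HFD mean 1.8 times that of HTG with no overlap. Ugt1a1, which glucuronidates bilirubin, held between 52.7% and 73.1% of it. Its own level was 613, 636 and 633 CPM in HFD 1 to 3 and 349, 407 and 340 CPM in HTG 1 to 3. The HFD libraries stood close together above every HTG library (log2 fold change -0.78 ± 0.19, SE, adjusted p = 0.0657). Ugt1a6b, of the branch that acts on planar phenols, measured 104, 107 and 83.5 CPM in the HFD group and 46.5, 43.6 and 14.2 CPM in the HTG group. Its groups did not overlap, with HTG 3 the lowest of all (log2 fold change -1.49 ± 0.40, adjusted p = 0.0777).

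With all libraries the other 6 genes of the locus were not called, and their levels swung widely between libraries of 1 group. Ugt1a9 was at 40.0, 161 and 54.1 CPM in the HFD libraries against 46.4, 14.9 and 2.35 CPM in the HTG libraries (log2 fold change -2.0 ± 0.92, adjusted p = 0.223). HTG 1 lay above HFD 1 for this gene, and the log2 fold change was -1.15 without HFD 2 and -3.32 without HTG 1, when it was called lower. Ugt1a5 likewise ranged from 33.0 to 139 CPM in the HFD group and from 4.14 to 36.8 CPM in the HTG group (log2 fold change -1.61, adjusted p = 0.242), and was called lower without HFD 2 (-1.97) but had a log2 fold change of -0.73 without HFD 3. Ugt1a6a, the neighbour of Ugt1a6b, ranged from 122 to 215 CPM against 80.3 to 179 CPM (log2 fold change -0.36 ± 0.32, adjusted p = 0.526). Ugt1a2, Ugt1a7c and Ugt1a10 stayed under 17 CPM in every library, with Ugt1a2 at 14.6 CPM in HTG 3 and at 0 in HTG 1 and HTG 2. Without HFD 3, Ugt1a7c was called higher (log2 fold change 3.56), and without HTG 3, Ugt1a2 was called lower against HTG libraries with no count.

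The UGT2 genes, whose products conjugate steroids, bile acids and many drugs, lie side by side on chromosome 5, and 7 of the 8 tested were called lower. Ugt2a1 had no count in any library and was not tested. Ugt2b38 differed with the smallest p of the members. It measured 35.1, 58.0 and 30.9 CPM in HFD 1 to 3 and 12.6, 6.06 and 10.2 CPM in HTG 1 to 3. The lowest HFD library held more than the highest HTG library (log2 fold change -2.10 ± 0.33, adjusted p = 0.0538). Ugt2b35 stood at 157, 246 and 135 CPM against 77.6, 91.0 and 65.7 CPM, also without overlap (log2 fold change -1.20 ± 0.26, adjusted p = 0.061).

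The most abundant UGT genes per length were Ugt2b5 (309 FPKM, mean of the 6 libraries), Ugt2b36 (263 FPKM) and Ugt1a1 (214 FPKM). Ugt2b5 was at 746, 1284 and 489 CPM in the HFD libraries and at 432, 395 and 288 CPM in the HTG libraries. HFD 2 was far above the other HFD libraries, and the groups did not overlap (log2 fold change -1.18 ± 0.36, adjusted p = 0.0998). Without HFD 2 its log2 fold change was -0.74, still called. Ugt2b36 was at 774, 889 and 544 CPM against 473, 382 and 349 CPM, again with every HFD library above every HTG library (log2 fold change -0.87 ± 0.25, adjusted p = 0.0892).

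Of the remaining UGT2 genes, Ugt2a3 ranged from 180 to 202 CPM in the HFD group and from 92.7 to 138 CPM in the HTG group, with no overlap (log2 fold change -0.79 ± 0.21, adjusted p = 0.0758). Ugt2b34 ranged from 328 to 556 CPM against 159 to 258 CPM (log2 fold change -0.90 ± 0.29, adjusted p = 0.109), and its call was lost without HFD 2 (log2 fold change -0.61) or HTG 3 (-0.71). For Ugt2b1 the groups overlapped, since HTG 1 at 225 CPM lay above HFD 3 at 220 CPM (log2 fold change -0.59 ± 0.24, adjusted p = 0.17). The Ugt2b1 call was lost without any 1 of HFD 1 (log2 fold change -0.57), HFD 2 (-0.48), HTG 2 (-0.55) or HTG 3 (-0.45). Ugt2b37, at no more than 3.04 CPM, was not called (log2 fold change -1.08 ± 0.57, adjusted p = 0.285), had a log2 fold change of -0.57 without HFD 2 and was called lower without HFD 1 (-1.48). All 7 Ugt2b genes had their highest HFD level in HFD 2 and a negative log2 fold change. They are close relatives whose reads may be shared, so they are not 7 independent observations.

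Both UGT3A genes, whose enzymes use UDP sugars other than UDP-glucuronate, were called lower. Ugt3a2 stood at 256, 267 and 266 CPM in the HFD libraries and at 126, 62.2 and 103 CPM in the HTG libraries. The HFD libraries were nearly level and the highest HTG library was well below them (log2 fold change -1.44 ± 0.27, adjusted p = 0.0568). Ugt3a1 measured 30.1, 37.5 and 38.6 CPM against 20.0, 10.1 and 12.4 CPM, with HTG 1 the highest of its group as for Ugt3a2 (log2 fold change -1.32 ± 0.26, adjusted p = 0.0582). An annotated gene of unnamed symbol overlaps Ugt3a2 on the other strand, and whether the counting used the strand was not stated. Across the family, HTG 1 was the highest HTG library for 12 of the 18 tested genes and HTG 3 the lowest for 9.

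**Figure D3:**
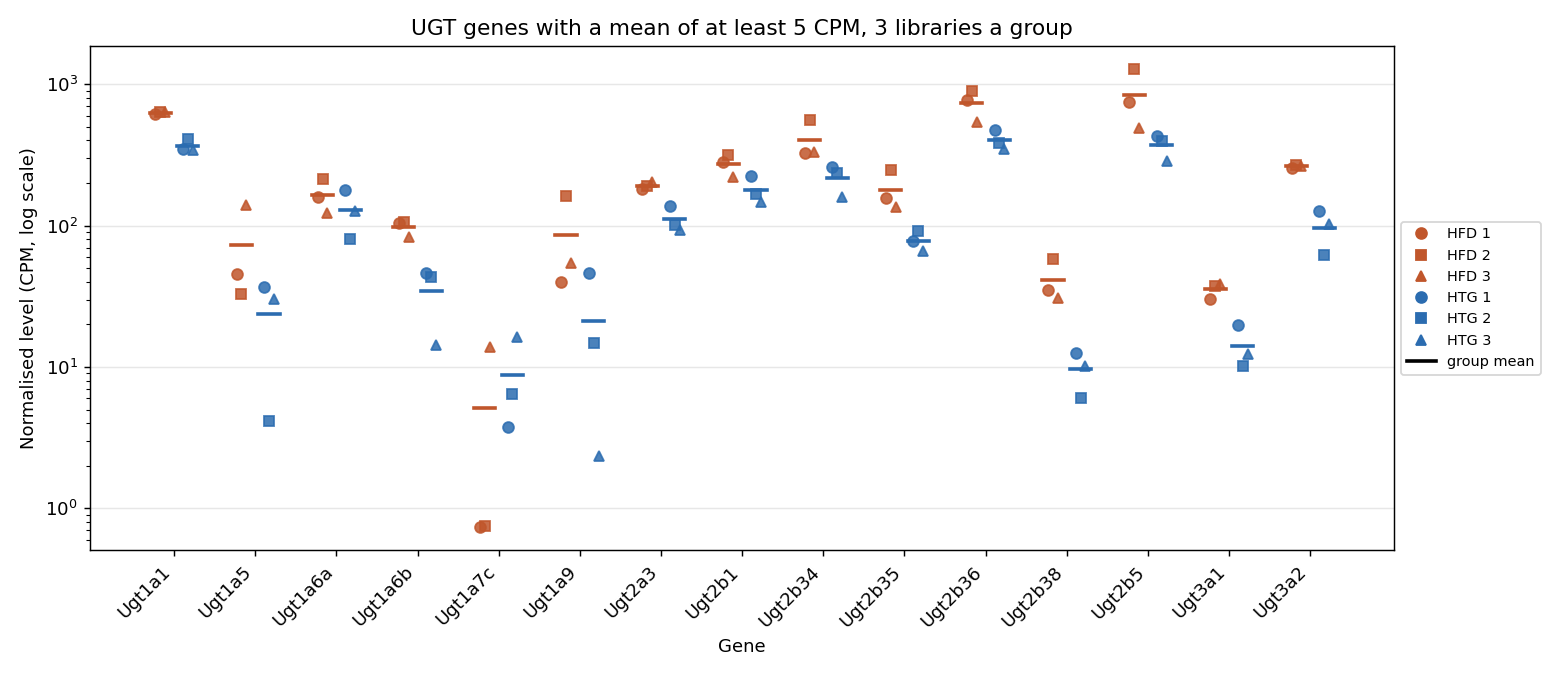
CPM (log axis) of the more abundant UGT genes in each of the 3 HFD and 3 HTG libraries, 1 point per library. For Ugt2b38, Ugt3a2 and Ugt1a1 every HFD point lies above every HTG point, while Ugt1a5, Ugt1a6a, Ugt1a9 and Ugt2b1 show overlap.

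Among the GST genes, 3 of the 4 tested alpha-class genes were called lower, and the class sum of HFD was 2.32 times that of HTG. Alpha enzymes conjugate electrophiles and lipid peroxidation products. Gsta3, which in mice detoxifies the activated form of aflatoxin, was by far the most abundant of them (276 FPKM) and measured 1842, 1570 and 1845 CPM in the HFD libraries and 1122, 570 and 546 CPM in the HTG libraries. HTG 1 was the highest of its group but below every HFD library (log2 fold change -1.23 ± 0.32, adjusted p = 0.0723). The other-strand gene Gm28836 overlaps Gsta3.

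Gsta1 was a gene of low level, at 12.5, 2.10 and 6.91 CPM in the HFD group and 1.27, 0.644 and 0.683 CPM in the HTG group. The HFD libraries differed among themselves by far more than the HTG libraries did, but none fell to the HTG level (log2 fold change -3.04 ± 0.63, adjusted p = 0.0585). Gsta2 was at 18.9, 15.8 and 11.0 CPM against 8.0, 8.11 and 2.54 CPM, without overlap (log2 fold change -1.29 ± 0.42, adjusted p = 0.113). The Gsta2 call was lost without HFD 1 (log2 fold change -1.1). Gsta4, whose enzyme removes hydroxynonenal, was not called, at 24.7 to 40.1 CPM against 17.4 to 38.5 CPM (log2 fold change -0.36 ± 0.31, adjusted p = 0.508), with log2 fold changes from -0.74 without HTG 2, when it was called lower, to -0.17 without HTG 1. Gsta5 had too few counts to test, at no more than 0.264 CPM.

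The 7 mu-class genes, clustered on chromosome 3, all had their lowest HFD level in HFD 2. Gstm3 and Gstm4 were called lower. Gstm3 measured 319, 51.4 and 227 CPM in the HFD libraries and 22.6, 46.0 and 55.8 CPM in the HTG libraries. HFD 2 lay within the HTG range, and the other HFD libraries were far above it (log2 fold change -2.26 ± 0.61, adjusted p = 0.0806). Gstm4 was at 41.8, 21.7 and 43.6 CPM against 18.3, 25.7 and 24.9 CPM, so that HFD 2 again fell among the HTG values (log2 fold change -0.64 ± 0.28, adjusted p = 0.202). The Gstm4 call was lost without any 1 of HFD 1 (log2 fold change -0.51), HFD 3 (-0.47), HTG 1 (-0.54), HTG 2 (-0.73) and HTG 3 (-0.70).

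Gstm1, the main mu-class transcript of this tissue (1311 FPKM), was at 2968, 2047 and 2118 CPM in the HFD group and 1483, 2032 and 1402 CPM in the HTG group. The groups did not overlap, although HFD 2 and HTG 2 nearly met, and the gene was not called (log2 fold change -0.54 ± 0.26, adjusted p = 0.251). Its log2 fold change was -0.35 without HFD 1, and -0.72 without HTG 2, when it was called lower. Without HFD 2, Gstm2, Gstm6 and Gstm7 were called lower too (log2 fold change -1.12, -0.58 and -0.70), and the GST genes called lower numbered 9. With all libraries those genes had log2 fold changes of -0.78, -0.36 and -0.43, and Gstm5 had 0.18 (adjusted p = 0.286, 0.444, 0.407 and 0.743). Mu-class genes are near-identical in places, and a processed pseudogene, Gstm2-ps1, carried between 554 and 2215 counts per library, so reads may be shared among them.

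The pi-class genes on chromosome 19 did not share 1 direction. Gstp1, the main pi enzyme (966 FPKM), was at 1858, 2728 and 1184 CPM in the HFD libraries and 1098, 1447 and 1121 CPM in the HTG libraries. HTG 2 lay above HFD 3, and the gene was not called (log2 fold change -0.65 ± 0.32, adjusted p = 0.255), and its log2 fold change was -0.32 without HFD 2 and -0.91 without HFD 3, when it was called lower. Gstp3, a scarce relative, stood at 9.98, 7.92 and 10.4 CPM against 12.7, 16.8 and 19.4 CPM. Every HTG library was above every HFD library (log2 fold change 0.79 ± 0.21, adjusted p = 0.0816). Gstp2 ranged from 135 to 382 CPM against 188 to 253 CPM (log2 fold change -0.31 ± 0.35, adjusted p = 0.624), with 0.07 without HFD 2 and -0.62 without HFD 3, when it was called lower.

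Of the theta class, Gstt3 was at 41.3, 20.5 and 71.7 CPM in the HFD libraries and at 19.2, 24 and 13.4 CPM in the HTG libraries. HTG 2 lay above HFD 2, so the groups overlapped (log2 fold change -1.24 ± 0.42, adjusted p = 0.122). The Gstt3 call was lost without HFD 3 (log2 fold change -0.71) or HTG 3 (-1.04). Gstt1 and Gstt2 had log2 fold changes of 0.02 ± 0.28 and 0.82 ± 0.47 (adjusted p = 0.978 and 0.319). Gstt2, high in HTG 2, had a log2 fold change of 0.06 without that library and 1.19 without HTG 3, when it was called higher.

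The omega, kappa and zeta genes were not called with all libraries. Gstz1, which isomerises maleylacetoacetate in tyrosine breakdown, ranged from 580 to 667 CPM in the HFD group and from 465 to 571 CPM in the HTG group, narrowly without overlap (log2 fold change -0.28 ± 0.20, adjusted p = 0.41). The other-strand genes Pomt2 and Gm6566 overlap Gstz1. Gsto1 and the kappa gene Gstk1 had log2 fold changes of -0.52 ± 0.28 and -0.14 ± 0.23 (adjusted p = 0.284 and 0.739). Gsto1 had -0.24 without HFD 2 and was called lower without HFD 3 (-0.72) or HTG 1 (-0.76), and Gsto2 was near the level of 3 fragments. Mgst1, a membrane enzyme, was the most abundant member per length (1521 FPKM), with 3428, 3483 and 3144 CPM against 3676, 2298 and 3344 CPM. HTG 1 was the highest of all 6 libraries and HTG 2 the lowest (log2 fold change -0.11 ± 0.25, adjusted p = 0.824). Mgst2 (-0.25 ± 0.76) and Mgst3 (0.53 ± 0.30) were not called either (adjusted p = 0.872 and 0.317), although Mgst3 was called higher without HTG 3 (0.77) and had 0.20 without HTG 2.

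**Figure D4:**
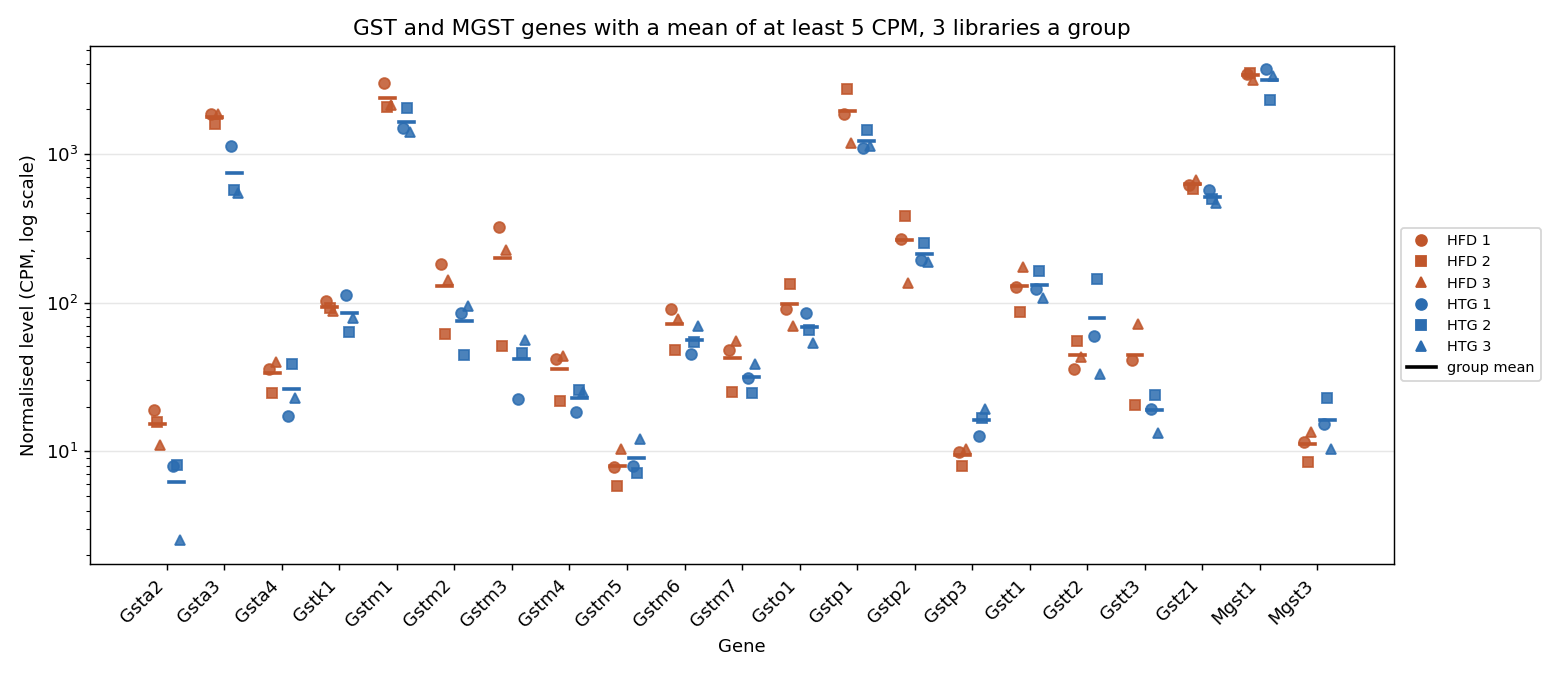
CPM (log axis) of the more abundant GST and MGST genes in each of the 3 HFD and 3 HTG libraries, 1 point per library. The HFD points of Gsta3 lie above all its HTG points, 1 HFD point of Gstm3 (HFD 2, 51.4 CPM) falls among the HTG points, and those of Gstp3 lie below.

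Of the 15 SULT genes, 6 (Sult2a1, Sult2a2, Sult2b1, Sult3a1, Sult3a2 and Sult6b1) had too few counts to test. Sult1a1, the phenol sulfotransferase and the most abundant of the family per length (277 FPKM), stood at 577, 463 and 520 CPM in the HFD libraries and at 437, 280 and 350 CPM in the HTG libraries. HTG 1 came close to HFD 2, but the groups did not overlap (log2 fold change -0.55 ± 0.23, adjusted p = 0.187). Sult1a1 was no longer called without HFD 1 (log2 fold change -0.47), HFD 3 (-0.55), HTG 2 (-0.40) or HTG 3 (-0.53), and Sgf29 overlaps it on the other strand.

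Sult4a1, best known from brain, was called lower at levels near the detection limit, with 0.793, 0.645 and 0.766 CPM against 0.257, 0.246 and 0.128 CPM. In fragments these were 13.5, 10.8 and 13.8 in the HFD group and 5.0, 6.0 and 1.5 in the HTG group (log2 fold change -1.78 ± 0.53, adjusted p = 0.0958). HTG 3 held fewer than the 3 fragments taken as the limit, so its level was not told apart from none.

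The other abundant SULT genes were not called. Sult2a8, which sulfonates bile acids in mouse liver (108 FPKM), was at 271, 394 and 273 CPM in the HFD libraries and at 356, 658 and 275 CPM in the HTG libraries. HTG 2 was high and HTG 3 stood at the level of HFD 1 and HFD 3 (log2 fold change 0.46 ± 0.34, adjusted p = 0.441). Without HTG 2 the log2 fold change of Sult2a8 was 0.01. Sult1d1, which acts on catecholamines (63.4 FPKM), was at 236, 155 and 163 CPM against 139, 155 and 125 CPM. HFD 2 and HTG 2 were all but equal, and HFD 1 stood above the rest (log2 fold change -0.41 ± 0.22, adjusted p = 0.296), and without HFD 1 the log2 fold change was -0.19. Sult1e1, the oestrogen sulfotransferase, varied from 0.495 to 12.9 CPM in the HFD group and from 0.225 to 2.77 CPM in the HTG group (log2 fold change -2.18 ± 1.1, adjusted p = 0.265), with -1.0 without HFD 1 and -3.40 without HTG 1, when it was called lower. Without HFD 2, Sult1b1 and Sult1e1 were called lower (log2 fold change -0.92 and -2.73), and the SULT genes called lower numbered 4. They numbered 1 without any 1 of HFD 1, HFD 3, HTG 2 and HTG 3. Of the rest, log2 fold changes were 0.20 for Sult2a7, 0.38 for Sult1c2 and 0.82 for Sult5a1 (adjusted p = 0.852, 0.571 and 0.227). Sult5a1 was called higher without HTG 1 (1.06) and had 0.50 without HTG 2.

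On chromosome 5, 12 members lie within 702 kb, between positions 87037626 and 87739453 as the table lists them, with no build named for these coordinates. The 9 UGT2 genes occupy the first part and Sult1b1, Sult1d1 and Sult1e1 the end. Of the 9, 7 were called lower, and of the 3 neighbouring SULT genes none was at an unadjusted p under 0.05 in edgeR. All 3 had negative log2 fold changes with all libraries (-0.58 for Sult1b1, adjusted p = 0.384). HFD 2 was the highest HFD library for the 7 Ugt2b genes and the lowest for the 3 SULT genes. A difference between the neighbours was not tested.

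The donors and carriers that serve these enzymes were examined with genes of other conjugation reactions, of a deconjugation list and of regulators. Exporters were listed apart, and the others made 48 genes in all, of which 47 were tested. Of these, 13 were called lower and 3 were called higher, against 12.4% and 12.3% of all genes tested, and 20.4% and 15% of those averaging at least 10 CPM. Their median log2 fold change was -0.23, and the counts of the short lists that follow are to be read against the same shares. For the UDP-glucuronate donor, 2 of 4 genes were called lower. Ugdh, which makes UDP-glucuronate, was at 213, 274 and 169 CPM in the HFD libraries and 126, 80.2 and 87.2 CPM in the HTG libraries, with no overlap (log2 fold change -1.16, adjusted p = 0.0612). Ugp2, which makes the UDP-glucose before it, was at 332, 209 and 328 CPM against 117, 197 and 146 CPM (log2 fold change -0.92, adjusted p = 0.0948). HFD 2 was the lowest HFD library for Ugp2 and the highest for Ugdh.

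For the PAPS donor of the sulfotransferases, 2 of 6 genes were called lower and 1 was called higher. Slc26a1, a sulfate carrier, and Bpnt1, which breaks down the spent donor, were lower (log2 fold change -0.84 and -0.91, adjusted p = 0.0971 and 0.0676), and Slc35b3, a PAPS carrier of the Golgi, was higher (0.69, adjusted p = 0.117). The PAPS synthases Papss1 and Papss2 had log2 fold changes of -0.05 and -0.23 (adjusted p = 0.949 and 0.713). Of 11 glutathione genes, 3 were called lower and 1 was called higher. Cth, which yields cysteine, measured 497, 647 and 360 CPM in the HFD group and 288, 148 and 155 CPM in the HTG group, without overlap (log2 fold change -1.35, adjusted p = 0.0663). Gsr, which reduces oxidised glutathione, and Slc7a11, a cystine carrier, were lower (-0.67 and -1.16, adjusted p = 0.106 and 0.20), and Chac2, which degrades glutathione, was higher (0.49, adjusted p = 0.156). The subunits of the first enzyme of glutathione synthesis, Gclc and Gclm, had log2 fold changes of -0.28 and -0.14 (adjusted p = 0.628 and 0.751). The Slc35b3 call was lost without HFD 2 or HTG 3 (log2 fold change 0.59 and 0.52), the Chac2 call without HFD 2 or any HTG library (0.33 to 0.54) and the Slc7a11 call without any library but HTG 1 (-1.31 to -0.93). Without HFD 3, Slc26a1 remained called at -0.53, and without HTG 1, Slc7a11 at -1.77.

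Of 3 tested genes listed for deconjugation (Gusb, Arsa and Arsb), 2 were called lower, and Sts, also listed, had no row. Gusb, the beta-glucuronidase, was at 53.5, 48.8 and 55.5 CPM in the HFD libraries and 29.7, 20.6 and 21.7 CPM in the HTG libraries, with every HFD library above every HTG library (log2 fold change -1.13, adjusted p = 0.0538). Arsb, a sulfatase, had a log2 fold change of -1.19 (adjusted p = 0.0605), and Arsa had -0.31 (adjusted p = 0.607). Whether these sulfatases act on products of the SULT enzymes was not tested. Of 12 genes of acetyl, methyl and amino acid conjugation, Gnmt, a glycine methyltransferase, and As3mt, an arsenite methyltransferase, were called lower (-1.62 and -0.95, adjusted p = 0.0605 and 0.159), and Nat2, an acetyltransferase, higher (0.52, adjusted p = 0.122). Gnmt was at 1299, 1494 and 1590 CPM in the HFD libraries and at 731, 287 and 409 CPM in the HTG libraries. Of 5 exporters, Abcc3 was called lower (-0.58, adjusted p = 0.201) and Abcc6 higher (0.58, adjusted p = 0.138), while Abcc2, the canalicular exporter of conjugates, had a log2 fold change of 0.00 (adjusted p = 0.999). The calls of Nat2, Abcc3, Abcc6 and As3mt were each lost on leaving out 1 of several libraries. The smallest changes were reached without HTG 2 for Nat2 (0.43), Abcc6 (0.39) and As3mt (-0.62, still called, beside -1.48 without HTG 1) and without HTG 3 for Abcc3 (-0.36).

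Among 11 regulators, Ppara and Rxra were called lower (log2 fold change -0.80 and -0.73, adjusted p = 0.178 and 0.0785). CAR (Nr1i3), PXR (Nr1i2), Ahr and NRF2 (Nfe2l2) themselves had log2 fold changes of 0.15, -0.23, 0.14 and -0.16 (adjusted p = 0.847, 0.65, 0.822 and 0.712). The Ppara call was lost without HFD 2, HFD 3, HTG 1 or HTG 3 (log2 fold change -0.80, -0.45, -0.69 and -0.75). Genes known as their targets, other than the members, were given by count. Of 6 NRF2 targets 4 were called lower, namely Nqo1, Hmox1, Txnrd1 and Srxn1, with log2 fold changes of -1.11, -0.53, -0.80 and -1.10 (adjusted p = 0.0936, 0.157, 0.0671 and 0.0538). Cbr3 and Aox1 were not called (-0.75 and -0.59, adjusted p = 0.331 and 0.339). Of 5 CAR and PXR targets, Cyp2c29 and Cyp2c55 were called lower (-2.18 and -1.13, adjusted p = 0.0613 and 0.171). Cyp2b10, Cyp3a11 and Cyp2c37 were not called (-2.09, -0.58 and -0.42, adjusted p = 0.245, 0.509 and 0.417), and Cyp2b10 was scarce, at 0 to 1.09 CPM in the HTG libraries. Of 5 AHR targets, Cyp1a1 and Cyp1a2 were called lower (-2.22 and -1.13, adjusted p = 0.136 and 0.0616). Cyp1a1 was scarce, at 1.38, 0.555 and 1.36 CPM in the HFD libraries and 0.0385, 0.256 and 0.427 CPM in the HTG libraries. Its level in HTG 1 lay under 3 fragments, so the size of its fold is uncertain. Cyp1b1, Tiparp and Ahrr were not called (0.58, 0.04 and -0.91, adjusted p = 0.488, 0.948 and 0.474). The calls of Hmox1, Cyp2c55 and Cyp1a1 were each lost on leaving out 1 of several libraries, with log2 fold changes no nearer to 0 than -0.41 (without HTG 2), -0.84 (without HTG 1) and -1.75 (without HTG 1, still called). The list medians were -0.78, -1.13 and -0.91, beside 0.03 over all genes tested.

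**Figure D5:**
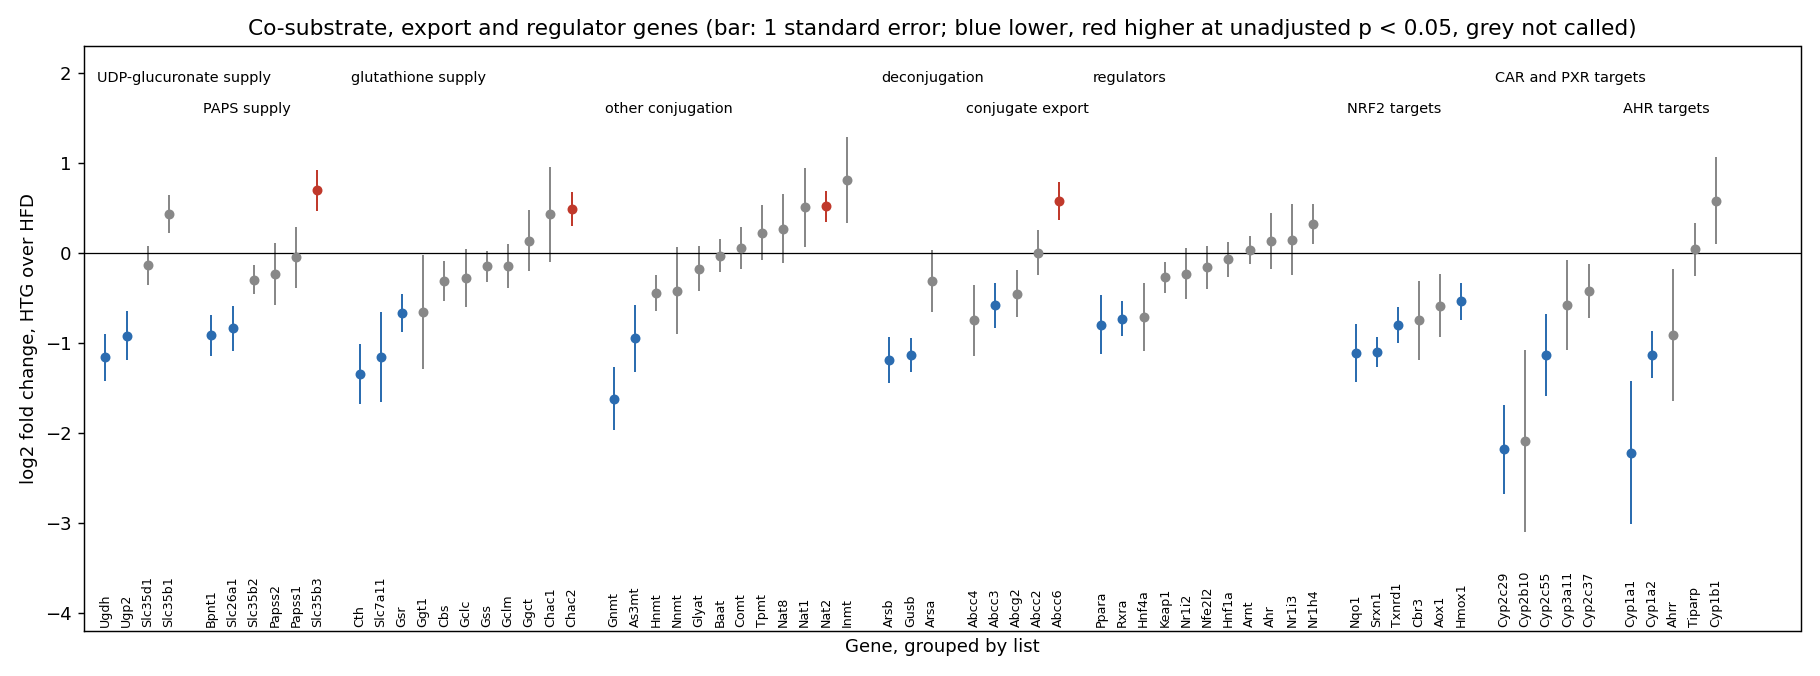
Log2 fold change (HTG over HFD) with bars of 1 standard error for genes of co-substrate supply, deconjugation, export, regulation and known regulator targets, grouped by list. Ugdh, Cth, Gnmt and Gusb lie below 0, at -1.16, -1.35, -1.62 and -1.13, while the regulators Nr1i3, Nr1i2 and Ahr lie near 0.

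Several GST and UGT genes are known to be higher in hepatocytes near the central vein, so markers of the lobule and of other cells were read beside them. Of 7 pericentral markers 4 were called lower (Glul, Oat, Rhbg and Slc1a2, log2 fold change -0.99, -1.11, -1.05 and -0.98, adjusted p = 0.0873, 0.0871, 0.103 and 0.0814), and their summed level was 6655 to 13271 CPM in the HFD libraries and 4835 to 9090 CPM in the HTG libraries. Of 6 periportal markers 3 were called lower (Hsd17b13, Gls2 and Ass1, -0.96, -0.46 and -1.14, adjusted p = 0.122, 0.156 and 0.0605), with sums of 4158 to 5248 CPM against 2404 to 2796 CPM. Each sum follows its most abundant gene. For the periportal markers this was Ass1 (means of 2991 CPM in HFD and 1361 CPM in HTG), and for the pericentral markers Cyp2e1 (7417 and 5000 CPM). The other pericentral markers, Cyp2e1, Lgr5 and Tbx3, had log2 fold changes of -0.57, 0.12 and -0.09 and were not called. The other periportal markers, Cyp2f2, Hal and Sds, had -0.50, 0.13 and 0.20 and were not called either. Markers of both zones were thus among the lower genes, and others of both zones were not called. The counts are to be read against the 12.4% of all genes tested that were called lower, and 20.4% of those averaging at least 10 CPM. Of 4 tested hepatocyte markers, Cps1 was called lower (-1.62, adjusted p = 0.0568), and Alb, Ttr and Hnf4a were not (-0.28, 0.06 and -0.71, adjusted p = 0.555, 0.902 and 0.282). Of 6 leukocyte markers, Adgre1 and Lyz2 were called lower (-1.53 and -0.76, adjusted p = 0.0538 and 0.133), with sums of 450 to 721 CPM against 313 to 535 CPM. Ptprc, Cd68, Clec4f and Cd3e were not called (log2 fold change 0.21, -0.41, -0.08 and 0.25). The Hsd17b13 call was lost without HFD 2 (log2 fold change -0.55), HTG 2 (-0.89) or HTG 3 (-0.83), that of Gls2 without HFD 1 (-0.45), HFD 3 (-0.45) or HTG 3 (-0.46), and that of Lyz2 without HFD 1 (-0.60), HTG 2 (-0.73) or HTG 3 (-0.57). The part of these markers in the UGT, SULT and GST results was not tested.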

How the data were processed

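Liver RNA from 3 HFD and 3 HTG samples, grouped by GEO's labels, was sequenced by the authors. For each gene and library the authors deposited a whole-number estimated count, with no scaling across libraries. The FPKM values they deposited beside it are scaled by transcript length and sequencing depth. Per the labels, the submitters' processing notes name HISAT2, StringTie, SAMtools and the build mRatBN7.2, with no versions, whereas the rows are mouse Ensembl genes. Whether the counting used strand was not stated, so values of genes that overlap, lie antisense or are near copies are uncertain. The table named no build for its coordinates, and no sequence is shown because the reference tables used here are of the rat. No column of values was left without a sample.

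Counts of all genes were tested with the quasi-likelihood test of edgeR 4.0.16 in R 4.3.3, after TMM scaling and a filterByExpr minimum count of 10, with group as the only term and Benjamini-Hochberg adjustment over the 18455 genes tested. All tests were two-sided. Named were the members at an unadjusted p under 0.05 and the 3 most abundant per family by FPKM; every library's value was given for the 4 with the smallest p per direction and for those 3. Some further members, such as Ugt1a9 and Gstt3, were given by library or by range after their values were seen. Of the other lists, genes at an unadjusted p under 0.05 were named, with some further genes named after their values were seen. Members and lists were chosen with earlier results of these data known. DESeq2 1.42.0, limma 3.58.1 on log2(FPKM + 0.1) and log2(FPKM + 1), other filters and scalings, counts divided by 4, a replicate block and leaving out each library were the alternatives. The test was checked on simulated data with 200 changed genes. The lists read beside the members were those of co-substrate supply, other conjugation, deconjugation, export, regulators, regulator targets, sex-biased genes and cell markers.

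The labels tie no library to a named animal, so p-values measure the spread between these samples. An exact permutation test of 3 against 3 cannot go below 0.1. The limit of 3 fragments covers counting error only.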

Additional observations from a re-analysis of the deposited data

How the results depend on the processing

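Of the 20 called members, 13 kept their call in all 15 alternatives, 1 (Sult4a1) kept it in the 12 in which it was tested, 6 lost it in at least 1 and 0 changed direction. Of the 26 called genes of the co-substrate, other conjugation, deconjugation, export, regulator and target lists, 15 kept it in all and 11 lost it in at least 1. The 18 called marker and sex-biased genes were followed only through leaving out each library, and 7 of them lost their call. The UGT genes called lower numbered 10 to 12 with 1 library left out, and those called higher 0 to 1. The UGT median ranged from -1.27 to -0.78 (the latter without HFD 2), the SULT median from -0.52 to -0.19 and the GST median from -0.49 to -0.30. With 1 library left out, SULT genes called higher numbered 0 to 1 and lower 1 to 4, GST genes higher 1 to 3 (3 without HTG 3) and lower 4 to 9, members at an adjusted p under 0.05 numbered 0 to 5 (5 without HTG 1, when 653 genes passed in the whole table), and co-substrate and regulator genes higher 1 to 3 and lower 10 to 15.

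Members at an adjusted p under 0.05 numbered 17 with DESeq2, 2 with no filter, 5 with at least 10 counts in every library, 7 and 6 with limma on log2(FPKM + 0.1) and log2(FPKM + 1), and 5 with counts divided by 4. In the whole table these counts were 2401, 162, 684, 878, 884 and 822, beside 2 in edgeR. With DESeq2 and with no filter, 1 SULT gene was called higher, and with no filter the SULT median was 0.12, over more genes tested. SULT genes called lower numbered 1 with at least 10 counts and 1 with either limma fit, in which scarce genes such as Sult4a1 were not tested, and 1 co-substrate or regulator gene was called higher in either limma fit. The cause of the other changes was not tested.

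The replicate numbers were not taken to pair the samples, since the labels give no pairing. Correlations over 3 samples a group cannot settle whether they do. Deviations from the group means correlated at -0.15, -0.12 and 0.21 for same-numbered samples, and not every sample correlated best with its own number. With a replicate block, UGT genes called higher numbered 1 and lower 13, SULT lower 3 and GST lower 5, and members at an adjusted p under 0.1 numbered 0 rather than 14.

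Of the SULT genes, 6 of 15 had too few counts to test, and whether depth or absence from liver set this was not tested.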

Other observations

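Sulfotransferases and some glutathione transferases differ between the sexes in mouse liver, so lists of sex-biased liver genes were read as well. Of 11 genes known to be higher in male liver, Hsd3b5, a steroid dehydrogenase, and Selenbp2, a selenium-binding protein, were called higher in the HTG group. Hsd3b5 was at 6.05, 3.01 and 1.13 CPM in HFD 1 to 3 and at 31.5, 70.5 and 21.4 CPM in HTG 1 to 3, without overlap (edgeR log2 fold change 3.60, adjusted p = 0.0553). Selenbp2 was at 62.1, 12.4 and 71.6 CPM against 209, 202 and 394 CPM, also without overlap (2.46, adjusted p = 0.0654). The other 9 were not called, and the list median was -0.09. Of 10 genes known to be higher in female liver, 6 were tested and A1bg was called higher, at no more than 0.0557 CPM in the HFD group and 0.171 to 0.424 CPM in the HTG group (adjusted p = 0.126). All its HFD libraries were under 3 fragments and so was HTG 3, and the call was lost without HFD 1, HFD 2 or HTG 1, so no fold is given. Cyp2b9, Cyp2b13, Cyp3a41a and Cyp3a44, all female-biased, were at no more than 0.251 CPM in every library.

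The remaining marker lists are given with their calls, beside 24.7% of all genes called in either direction. Of 5 cholangiocyte markers, Sox9 was called higher and Epcam lower (log2 fold change 0.79 and -0.95, adjusted p = 0.0939 and 0.158), with list sums of 85.3 to 106 CPM in the HFD group and 59.5 to 131 CPM in the HTG group. Of 5 stellate cell markers, Des was called higher and Reln lower (0.68 and -0.70, adjusted p = 0.143 and 0.0935), with sums of 132 to 180 CPM against 102 to 156 CPM. Of 4 red cell markers, Alas2 was called lower (-0.49, adjusted p = 0.139), with sums of 202 to 360 CPM against 208 to 366 CPM. None of 4 endothelial markers was at an unadjusted p under 0.05 in edgeR, with sums of 44.1 to 98.2 CPM against 74.9 to 116 CPM. Of the exocrine pancreas list, Cela2a was tested and not called (-0.03, adjusted p = 0.983), at 0.899 to 4.95 CPM. The Epcam, Des and Alas2 calls were each lost on leaving out 1 of several libraries, with log2 fold changes no nearer to 0 than -0.65 (without HFD 2), 0.53 (without HFD 2) and -0.36 (without HTG 3).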
